A study of Mus musculus with 5 samples.

Results

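Adhesion gene expression in follicular regulatory T (Tfr) cells lacking C/EBP alpha was examined through 45 genes, out of 57186 annotated genes in the deposited tables. They were taken by gene name: the integrin alpha and beta chains with genes named after them, and a set of adhesion receptors, tetraspanins and cytoskeletal linkers. Cd58 was also looked for and had no row. Tfr cells are regulatory T cells of the B cell follicle, where they hold back the germinal centre reaction.

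The RNA-seq libraries came from spleen Tfr cells sorted as live CD4+ Foxp3+ CXCR5+ PD-1+ ICOS+ cells, at day 21 of an imiquimod experiment; imiquimod activates TLR7, a receptor for RNA. The Cebpa_KO group held 2 libraries from Foxp3-Cre Cebpa-flox/flox mice, in which a Cre recombinase driven by Foxp3 deletes Cebpa in regulatory T cells. The WT group held 3 libraries from Foxp3-GFP reporter mice, and the Foxp3 allele thus differed between the groups as well. Every library was a pool of mice, and p-values therefore refer to the spread between pools. Ages are not given in the labels.

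Integrins are cell surface heterodimers of one alpha and one beta chain that bind ligands on other cells or in the extracellular matrix. In T cells they sit in a bent, low-affinity state until signals from the antigen receptor or chemokine receptors recruit talin and kindlin to the tail of the beta chain. Itgal with Itgb2 forms LFA1, which binds ICAM proteins and holds T cells to antigen-presenting and B cells. Itga4 pairs with Itgb1 or Itgb7 for binding to VCAM1 and MAdCAM1, and Itgav with Itgb8 frees active TGF-beta from its latent form. The genes here sample each step: chains, linkers to the cytoskeleton, immunoglobulin-family partners, and tetraspanins that cluster with integrins in the membrane.

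Values are scaled TPM, which is length-normalized abundance from the annotated gene rows, adjusted between libraries. Aligned depth was 6.76 to 7.08 gigabases per library, and 15250 to 15691 genes per library reached a TPM of 1. Cebpa was at 0.317 and 0.550 in Cebpa_KO, against 12.9, 17.7 and 12.8 in WT. Foxp3, a marker of the sort, was at 6.74 and 5.58 in Cebpa_KO, against 83.0, 107.3 and 104.8 in WT. Its level in the Cebpa_KO libraries thus went against the sort label. The other sort markers were well expressed in each library, with Cd4 at 470.6 and 487.7 in Cebpa_KO and 562.6 to 589.8 in WT, and Cxcr5 at 181.2 and 141.4 in Cebpa_KO and 252.1 to 297.9 in WT. A list of 8 T cell markers summed to 2967 and 3041 in Cebpa_KO and to 4227, 4051 and 4184 in WT, with 6 of the 8 called lower. The 4 Y-linked genes summed to 0 and 0.0311 in Cebpa_KO, against 162.3, 159.9 and 151.4 in WT, so sex and genotype cannot be told apart. WT replicate 3 stood apart from the other WT libraries: 20 stress and immediate early genes summed to 9489 and 9854 in Cebpa_KO and to 8334 in WT replicate 3, against 2935 and 2920 in WT replicates 1 and 2. Erythroid markers, a list of 7, summed to 2156 and 236.9 in Cebpa_KO and to 91.3, 61.5 and 713.2 in WT.

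Of the 45 genes, 30 were tested, having reached a TPM of 1 in 2 or more of the 5 libraries. The fit (limma, Benjamini-Hochberg adjusted p under 0.05 over 16254 genes) called 3 of them higher and 7 lower in Cebpa_KO, 33.3% of the 30. Over all genes tested 19.7% were called, 9.93% higher and 9.82% lower. Vcl was tested through its Cebpa_KO values only and had to differ to be tested; without it 2 of 29 were higher and 7 lower, 31.0%. The genes called higher were Cd81, Itgb5 and Vcl, and those called lower were Itga6, Itga7, Itga4, Itgb7, Itgb8, Itgb2 and Pecam1. In bulk samples, fewer cells of a type and less RNA per cell cannot be told apart, and the part of the lower T cell marker sum in the falls was not tested. The groups did not overlap in 19 of the 30, where the share over all tested genes was 56.7%. The median log2 difference of the 30 was -0.24, beside 0.01 over all tested genes. With either Cebpa_KO library left out no member passed (limma). Those fits called 0.215% of all genes without Cebpa_KO replicate 1 and 0.145% without Cebpa_KO replicate 2. All 10 kept the sign of their difference in each alternative fit in which they were tested. In the assembled loci, the rows that StringTie built from the reads of each library, Itga6, Itgb5, Pecam1, Cd81 and Vcl did not pass (limma, adjusted p between 0.0575 and 0.102).

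**Figure D1:**
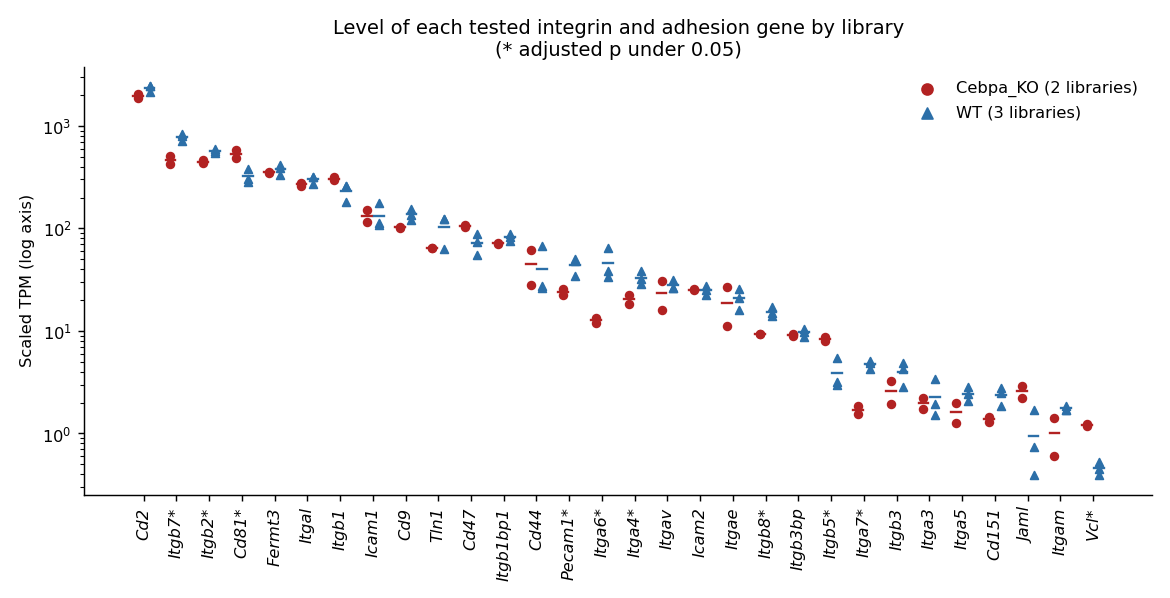
Scaled TPM on a log axis for the 30 tested genes in order of mean level, with Cebpa_KO libraries as circles on the left and WT libraries as triangles on the right of each gene; short lines are group means. The mean over all 5 libraries ran from 2179 for Cd2 to 0.760 for Vcl, and the groups of Itga6, Itgb7 and Cd81 were apart from each other.

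Of the 9 tested integrin alpha chains 3 fell and 0 rose, where 9.82% of all tested genes were called lower. All 9 differences had a negative sign, as had 49.1% of all tested genes, and that sign for Itga3, Itgae and Itgav turned when single libraries were left out. Itga6, which pairs with Itgb1 or Itgb4 to bind laminin, had the largest fall of the 30 genes. It was at 13.4 and 12.1 in Cebpa_KO, against 38.3, 64.9 and 33.9 in WT. Its mean was thus 3.60 times lower, and the lowest WT library was above both Cebpa_KO libraries. Itga6 (ENSMUSG00000027111, mm39 chromosome 2, 71575960 to 71688760) fell by 1.71 on the log2 scale (SE 0.29; limma, adjusted p = 0.0186). It passed when any WT library was left out. The fits without Cebpa_KO replicate 1 or 2 gave -1.78 and -1.64 (adjusted p = 0.111 and 0.121).

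Itga7, another laminin-binding chain that pairs with Itgb1, was low in both groups. It stood at 1.85 and 1.56 in Cebpa_KO and at 4.82, 5.10 and 4.26 in WT. The groups were well apart, with the lowest WT library more than 2 TPM above both Cebpa_KO libraries. The gene (ENSMUSG00000025348, chromosome 10, 128769645 to 128794155) fell by 1.08 on the log2 scale (SE 0.15; limma, adjusted p = 0.0128). Without WT replicate 2 it no longer passed (adjusted p = 0.0532), nor without Cebpa_KO replicate 1 (0.093) or 2 (0.105). Itga7 was the one member called when no filter on low values was applied and 57186 genes were tested.

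Itga4, the chain shared by the VCAM1 and MAdCAM1 receptors, was at 18.3 and 22.5 in Cebpa_KO and at 28.5, 38.6 and 32.3 in WT. Each WT library was above both Cebpa_KO libraries. Itga4 (ENSMUSG00000027009, chromosome 2, 79085770 to 79163467) fell by 0.67 on the log2 scale (SE 0.16; limma, adjusted p = 0.0454). This was a marginal call: it was lost when any one library was left out, with an adjusted p between 0.0562 and 0.238, and the log2 difference then lay between -0.81 and -0.52. Cerkl overlaps Itga4 on the other strand at 2.39 to 5.78 TPM, and the strand setting of the quantification is not given in the sources used here.

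Itgal, the LFA1 alpha chain, was the most abundant alpha chain in both groups. It was at 258.2 and 278.0 in Cebpa_KO and at 271.4, 318.7 and 315.9 in WT. The groups overlapped, and the log2 difference of -0.17 did not pass (limma, adjusted p = 0.286). Itgal supplied 75.6% and 76.9% of the summed alpha chain TPM in Cebpa_KO libraries, against 69.1%, 65.3% and 70.5% in WT libraries. The sum over all 18 alpha chains was 341.4 and 361.8 in Cebpa_KO and 392.7, 488.1 and 448.2 in WT.

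The other tested alpha chains did not pass. Itgae, the CD103 chain that pairs with Itgb7 to bind E-cadherin, and Itgav, named here after their values were seen, had overlapping groups. Itgae was at 11.2 and 26.6 in Cebpa_KO and at 16.1, 20.9 and 25.7 in WT, with Haspin on its other strand at 16.6 to 28.8. Itgav was at 30.7 and 15.9 in Cebpa_KO and at 26.4, 31.7 and 25.9 in WT. The Itgav spread in Cebpa_KO was not there in the assembled loci, where its level was 42.4 and 48.9 in Cebpa_KO and 46.8, 41.4 and 63.4 in WT. Itga3, Itga5 and Itgam had group means of 2.44 or less, with log2 differences of -0.11, -0.40 and -0.49. Itgam, the CD11b chain of myeloid cells, was at 1.41 and 0.604 in Cebpa_KO and at 1.87, 1.69 and 1.71 in WT; it shares its strand and region with Gm49368, which followed it at 0.540 to 1.49.

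Among the 8 beta chains, 6 were tested, of which 3 fell and 1 rose. Over all tested genes 9.82% were called lower and 9.93% higher. Itgb7, the partner of Itga4 and Itgae, was the most abundant beta chain of WT cells and ranked 148th of all tested genes by its WT mean. It was at 423.3 and 506.8 in Cebpa_KO, against 840.3, 790.9 and 714.9 in WT. All 3 WT libraries were above both Cebpa_KO libraries by more than 200 TPM. Itgb7 (ENSMUSG00000001281, chromosome 15, 102124430 to 102140379) fell by 0.75 on the log2 scale (SE 0.12; limma, adjusted p = 0.0169). It passed without WT replicate 1 or 3, but not without WT replicate 2 (adjusted p = 0.0635), Cebpa_KO replicate 1 (0.12) or Cebpa_KO replicate 2 (0.0841).

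Itgb8, which with Itgav activates latent TGF-beta, was at 9.36 and 9.30 in Cebpa_KO and at 14.1, 14.9 and 17.1 in WT. The Cebpa_KO libraries lay close together and below each WT library. The gene (ENSMUSG00000025321, chromosome 12, 119121757 to 119202537) fell by 0.66 (SE 0.13; limma, adjusted p = 0.0253). Without WT replicate 2 the adjusted p was 0.0746, and without either Cebpa_KO library it was 0.153. Its partner Itgav did not pass, with a log2 difference of -0.32 (adjusted p = 0.444).

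Itgb2, the beta chain of LFA1 and of the myeloid integrins, had a smaller fall. It stood at 431.2 and 464.5 in Cebpa_KO, against 570.8, 547.1 and 588.7 in WT, with no overlap. Itgb2 (ENSMUSG00000000290, chromosome 10, 77366086 to 77401542) fell by 0.34 (SE 0.08; limma, adjusted p = 0.0401). The call held without WT replicate 3. It was lost without WT replicate 1 (adjusted p = 0.0786), WT replicate 2 (0.0853), Cebpa_KO replicate 1 (0.256) or Cebpa_KO replicate 2 (0.162).

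Itgb5, which pairs with Itgav to bind vitronectin, went the other way. It was at 7.92 and 8.80 in Cebpa_KO and at 2.95, 3.17 and 5.42 in WT. WT replicate 3 lay between the other WT libraries and the Cebpa_KO libraries. Itgb5 (ENSMUSG00000022817, chromosome 16, 33650035 to 33769708) rose by 0.98 (SE 0.25; limma, adjusted p = 0.0485). The rise was 1.20 without WT replicate 3 (adjusted p = 0.0114). It did not pass without WT replicate 1 (0.1), WT replicate 2 (0.127), Cebpa_KO replicate 1 (0.187) or Cebpa_KO replicate 2 (0.217). Summed markers of myeloid cells, of which 11 of 12 reached 1 in a library, were at 413.2 and 110.0 in Cebpa_KO and at 102.2, 70.6 and 174.3 in WT. The part of these markers in the Itgb5 level was not tested.

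Itgb1, the partner of most matrix-binding alpha chains, was at 294.0 and 318.4 in Cebpa_KO and at 257.2, 257.8 and 182.7 in WT. Both Cebpa_KO libraries were above each WT library. The log2 difference of 0.41 did not pass (SE 0.17; limma, adjusted p = 0.150). Itgb3, a partner of Itgav and of the platelet chain Itga2b, had overlapping groups with a log2 difference of -0.48 (adjusted p = 0.251).

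The 3 abundant beta chains were also compared by their share of all beta chain transcripts. Itgb7 made up 36.3% and 38.7% of the summed TPM of the 8 beta chains in Cebpa_KO, against 49.8%, 48.9% and 47.2% in WT. Itgb1 made up 25.2% and 24.3% in Cebpa_KO, against 15.2%, 15.9% and 12.1% in WT. The groups did not overlap for either chain, with differences of -11.2 and 10.3 percentage points. For Itgb2 the shares overlapped, at 36.9% and 35.4% in Cebpa_KO and 33.8%, 33.8% and 38.9% in WT. An exact permutation test, two-sided, gave p = 0.1 for Itgb7 and for Itgb1, the smallest that 10 splits of 5 libraries allow, and p = 1.0 for Itgb2 (0.15, 0.15 and 1.0 with Benjamini-Hochberg adjustment over the 3 chains). The design cannot reach the threshold, and shares of 1 sum move against each other by construction.

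**Figure D2:**
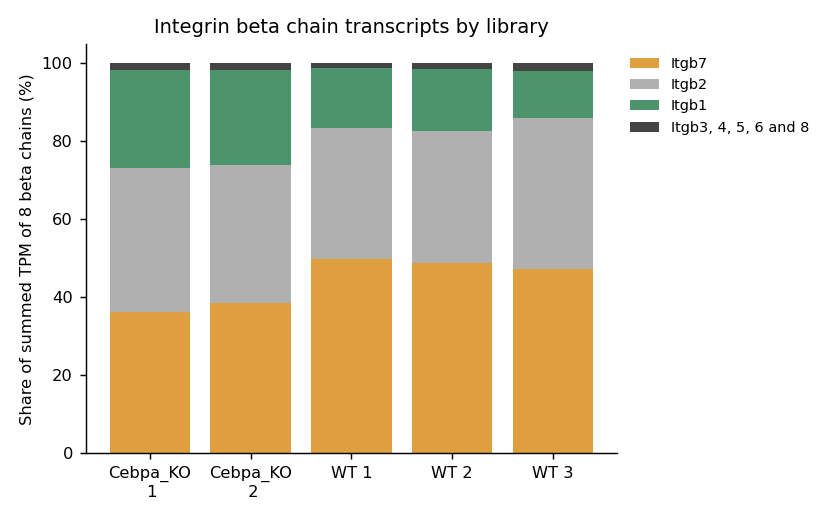
Share of the summed TPM of 8 integrin beta chains in each library, with the Cebpa_KO libraries to the left of the WT libraries. The Itgb7 share was 36.3% and 38.7% in Cebpa_KO, against 47.2% to 49.8% in WT, and the Itgb1 share 24.3% and 25.2% in Cebpa_KO, against 12.1% to 15.9% in WT.

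Promoter sequences are shown for 4 called integrin or partner genes, a pair that fell (Itgb7 and its partner Itga4) and a pair that rose (Cd81 and Itgb5). They are RefSeq windows of 300 bases, from 250 before to 50 after the start site, on build GRCm38.p6, another build than that of the deposited tables. Capitals mark matches on either strand to a GC box (GGGCGG) or a Runx motif (TGTGGT). A C/EBP motif (TTGCNNAA) was searched on both strands too and had no match in them. The window of Itgb7 is chr15:102231886-102232185 on the minus strand. The window of Itga4 is chr2:79255176-79255475 on the plus strand, that of Cd81 chr7:143052500-143052799 on the plus strand and that of Itgb5 chr16:33829415-33829714 on the plus strand.
Itgb7: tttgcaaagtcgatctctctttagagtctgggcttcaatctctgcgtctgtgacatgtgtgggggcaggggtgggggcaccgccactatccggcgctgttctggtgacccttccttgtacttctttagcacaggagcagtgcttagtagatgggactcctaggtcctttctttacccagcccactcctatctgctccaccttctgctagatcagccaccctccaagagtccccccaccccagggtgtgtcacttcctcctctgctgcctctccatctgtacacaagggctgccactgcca
Itga4: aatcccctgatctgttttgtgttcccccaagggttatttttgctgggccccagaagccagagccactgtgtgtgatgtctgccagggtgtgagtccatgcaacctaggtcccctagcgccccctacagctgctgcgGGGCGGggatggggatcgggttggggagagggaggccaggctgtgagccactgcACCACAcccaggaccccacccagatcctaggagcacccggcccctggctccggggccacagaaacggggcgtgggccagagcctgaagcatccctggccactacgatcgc
Cd81: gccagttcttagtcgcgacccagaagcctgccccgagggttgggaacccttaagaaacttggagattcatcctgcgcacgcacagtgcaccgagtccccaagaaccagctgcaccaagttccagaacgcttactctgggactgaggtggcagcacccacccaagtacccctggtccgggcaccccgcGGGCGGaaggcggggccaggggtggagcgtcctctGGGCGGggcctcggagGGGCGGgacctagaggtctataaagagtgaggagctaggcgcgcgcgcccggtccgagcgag
Itgb5: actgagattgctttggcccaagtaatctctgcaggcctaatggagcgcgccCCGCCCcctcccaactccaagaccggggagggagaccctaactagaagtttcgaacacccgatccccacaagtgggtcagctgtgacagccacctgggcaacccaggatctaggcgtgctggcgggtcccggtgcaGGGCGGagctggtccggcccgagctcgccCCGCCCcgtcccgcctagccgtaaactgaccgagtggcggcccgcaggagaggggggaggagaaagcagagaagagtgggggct

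Of the 45 genes, 32 had a promoter entry, with 36 windows between them. The C/EBP motif was in none of these 36 windows, and in 10.8% of all 32851 promoters in the table. The Runx motif was in 5 of the 36 windows and in 16.8% of all promoters, and in Itga4 it is the ACCACA printed in capitals. The GC box was in 18 of the 36 and in 35.7% of all. A window without these letters says nothing of the factor.

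Of 3 linkers between integrins and actin, 2 did not pass and Vcl was called higher under the condition given above. Over all tested genes 9.93% were called higher. Talin, encoded by Tln1, and kindlin-3, encoded by Fermt3, bind the beta chain tail and switch integrins on, and vinculin, encoded by Vcl, joins talin to actin. Tln1 was at 63.9 and 64.3 in Cebpa_KO and at 62.9, 124.0 and 124.2 in WT. WT replicate 1 was just below the Cebpa_KO libraries, and the other WT libraries were far above them. Tln1 had a log2 difference of -0.62 that did not pass (limma, adjusted p = 0.216), and without WT replicate 1 it fell by 0.94 (adjusted p = 0.0275). Creb3, which overlaps Tln1 on the other strand, was at 78.1 and 78.2 in Cebpa_KO and at 98.6, 89.3 and 95.5 in WT.

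Fermt3 was at 345.4 and 357.3 in Cebpa_KO and at 387.2, 333.2 and 413.2 in WT, overlapping, and did not pass (log2 difference -0.10, limma adjusted p = 0.554). Vcl was near the filter, at 1.25 and 1.19 in Cebpa_KO and at 0.450, 0.390 and 0.530 in WT. It was tested because of its Cebpa_KO values alone, so a difference was a condition of being tested and its call is not support for a rise. In that fit the log2 difference of Vcl (ENSMUSG00000021823, chromosome 14, 20979466 to 21083744) was 0.61 (SE 0.15; limma, adjusted p = 0.0432). Without WT replicate 1 or 2 it did not pass (adjusted p = 0.0786 and 0.107), and without either Cebpa_KO library it was below the filter. Ap3m1, on the other strand across the same region, was at 14.9 and 15.5 in Cebpa_KO and at 15.3, 14.9 and 13.9 in WT.

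Of the proteins named for binding integrin tails, Itgb1bp1 encodes ICAP1, which competes with talin and kindlin on the Itgb1 tail. It was at 69.9 and 72.7 in Cebpa_KO and at 87.3, 74.7 and 83.3 in WT and did not pass (log2 difference -0.19, limma adjusted p = 0.202). Cpsf3 overlaps it on the other strand at 125.0 to 154.4. Itgb3bp, which despite its name encodes a centromere protein, had overlapping groups and a log2 difference of -0.08. Itgb1bp2, the muscle protein melusin and the X-linked member of the set, was below the filter.

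**Figure D3:**
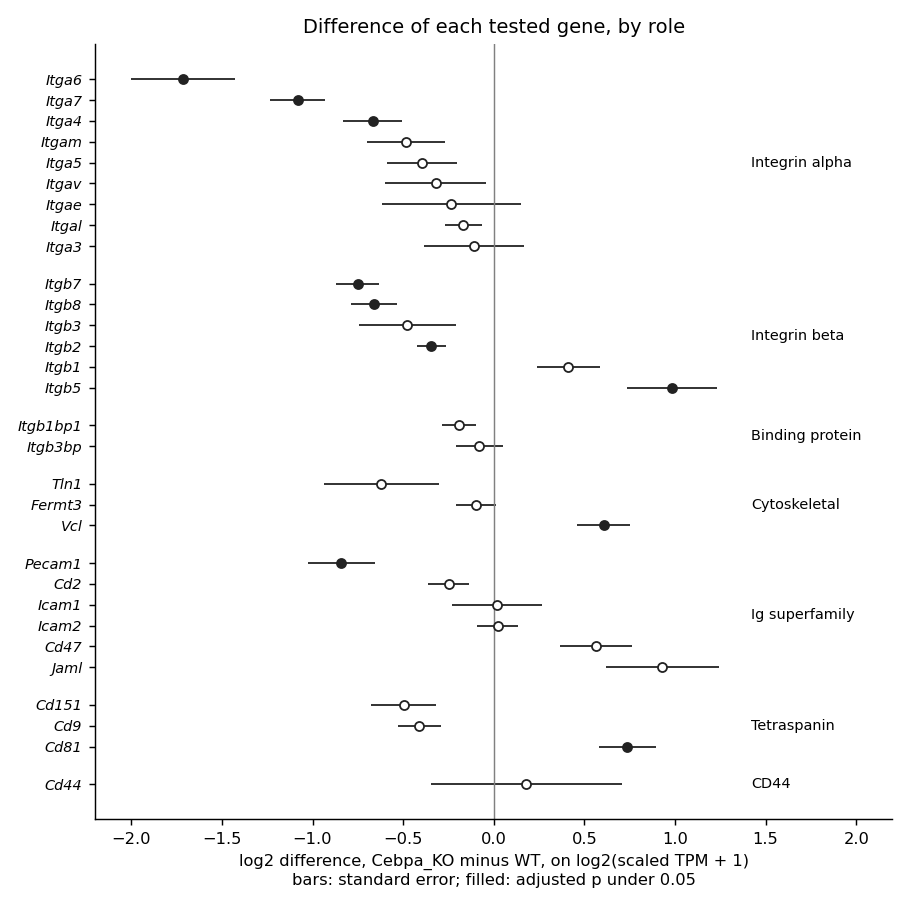
The log2 difference of Cebpa_KO minus WT for each of the 30 tested genes, grouped by role, with its standard error; filled points had an adjusted p under 0.05. All 9 alpha chains lie left of 0 (with single libraries left out Itga3, Itgae and Itgav did not), whereas Itgb5, Vcl and Cd81 are the filled points to the right.

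In the immunoglobulin family, 1 of 6 tested genes fell, where 9.82% of all tested genes were called lower. Pecam1, the homophilic receptor CD31 of leukocytes, platelets and endothelium, was at 25.8 and 22.4 in Cebpa_KO and at 48.1, 50.4 and 34.7 in WT. WT replicate 3 was the lowest of the WT libraries and still above both Cebpa_KO libraries. Pecam1 (ENSMUSG00000020717, chromosome 11, 106545043 to 106641454) fell by 0.84 (SE 0.19; limma, adjusted p = 0.0345). The fall was 1.01 without WT replicate 3 (adjusted p = 0.00892). It was not called without WT replicate 1 (0.0873), WT replicate 2 (0.0953), Cebpa_KO replicate 1 (0.14) or Cebpa_KO replicate 2 (0.183). Platelet markers, a list of 8 of which none reached 1, summed to 2.69 and 1.63 in Cebpa_KO and to 1.84, 1.32 and 1.49 in WT. Endothelial and stromal markers, a list of 8, summed to 0.335 or less in each library.

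Cd2, which in mice binds CD48 on other cells, was the most abundant of all 45 genes and 33rd of all tested genes in Cebpa_KO and 28th in WT. It was at 1856 and 2056 in Cebpa_KO, against 2422, 2118 and 2443 in WT. The Cebpa_KO libraries were below each WT library, by little for WT replicate 2, and the log2 difference of -0.25 did not pass (limma, adjusted p = 0.174). Its ligand gene Cd48 was at 392.0 and 428.8 in Cebpa_KO and at 592.8, 503.3 and 547.1 in WT, a fall of 0.41 (limma, adjusted p = 0.0450). The Cd48 call was lost when any 1 library was left out, with an adjusted p of 0.0524 without WT replicate 3, 0.0712 and 0.0811 without WT replicates 2 and 1, and 0.249 and 0.159 without Cebpa_KO replicates 1 and 2.

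Icam1, an LFA1 ligand induced by inflammatory signals, was at 115.0 and 149.6 in Cebpa_KO and at 112.6, 108.9 and 177.5 in WT. WT replicate 3 was the highest of the 5 libraries, and the groups overlapped. Its log2 difference was 0.02 against all WT libraries (limma, adjusted p = 0.965; negative with quantile normalization and in 4 fits with other sets of libraries), 0.24 relative to WT replicates 1 and 2, and -0.43 relative to WT replicate 3. Icam2, a constitutive LFA1 ligand that is named here after its values were seen, was at 25.5 and 25.0 in Cebpa_KO and at 27.2, 22.6 and 25.1 in WT. In the assembled loci Icam2 was at 75.7 and 70.4 in Cebpa_KO and at 97.6, 96.0 and 89.9 in WT, and there it fell by 0.37 (limma, adjusted p = 0.0358).

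Cd47, which binds SIRP-alpha on phagocytes and thrombospondin, was at 107.7 and 103.5 in Cebpa_KO and at 55.1, 74.3 and 87.6 in WT. The 3 WT libraries were spread and each was below both Cebpa_KO libraries. The log2 difference of 0.56 did not pass (limma, adjusted p = 0.102), whereas without WT replicate 3 it rose by 0.71 (adjusted p = 0.036). Jaml, a junctional receptor of T cells and neutrophils named here after its values were seen, is described beside it for its WT replicate 3 level. It was at 2.24 and 2.93 in Cebpa_KO and at 0.741, 0.393 and 1.71 in WT, with a log2 difference of 0.93 (adjusted p = 0.0929), and 1.20 without WT replicate 3 (adjusted p = 0.0202). Esam, an adhesion molecule of endothelium and platelets, stayed at 0.292 or less in each library.

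Of the 3 tetraspanins 1 rose and 2 did not pass, where 9.93% of all tested genes were called higher. Cd81, a costimulatory molecule on T cells, was at 486.9 and 582.1 in Cebpa_KO and at 302.1, 283.5 and 379.9 in WT. Both Cebpa_KO libraries were above the highest WT library, which was WT replicate 3. Cd81 (ENSMUSG00000037706, chromosome 7, 142606476 to 142621671) rose by 0.74 on the log2 scale (SE 0.16; limma, adjusted p = 0.0320). It was 2nd by level among the 30 genes in Cebpa_KO and 5th in WT. The rise was 0.87 without Cebpa_KO replicate 1 (adjusted p = 0.119) and 0.61 without Cebpa_KO replicate 2 (0.179), and it was not called without WT replicate 1 (0.0828) or 2 (0.0899). A list of 9 B and plasma cell markers summed to 5093 and 1877 in Cebpa_KO and to 1456, 901.6 and 9690 in WT. The part of these markers in the Cd81 level was not tested.

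Cd9, a tetraspanin that associates with Itgb1 integrins, was at 103.2 and 101.2 in Cebpa_KO and at 136.4, 120.3 and 153.8 in WT. The groups did not overlap, and the log2 difference of -0.41 did not pass (limma, adjusted p = 0.0654). In the assembled loci it fell by 0.76 (adjusted p = 0.0406), at 154.1 and 138.7 in Cebpa_KO and 248.3, 218.6 and 279.4 in WT. Cd151, the tetraspanin that binds laminin-binding integrins, was at 1.45 and 1.29 in Cebpa_KO and at 1.85, 2.77 and 2.48 in WT and did not pass (adjusted p = 0.11).

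Cd44, the hyaluronan receptor and a marker of antigen-experienced T cells, had the largest standard error of the 30 genes and is named here after its values were seen. It stood at 61.9 and 27.9 in Cebpa_KO and at 67.6, 27.6 and 26.2 in WT. The high value of each group was thus far above its low values, and the log2 difference of 0.18 did not pass (SE 0.53; limma, adjusted p = 0.827). In the assembled loci it was at 58.6 and 45.6 in Cebpa_KO and 64.6, 44.7 and 43.3 in WT, a narrower spread in the same order of libraries within WT.

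Below the filter were 15 genes, which reached 1.48 at most. The 9 alpha chains were Itga1, Itga2, Itga2b, Itga8, Itga9, Itga10, Itga11, Itgad and Itgax, and the beta chains were Itgb4 and Itgb6. Itgb2l, Itgbl1, Itgb1bp2 and Esam made up the rest. Itga2b, the platelet and megakaryocyte chain, was at 1.48 and 0.347 in Cebpa_KO and at 0.314, 0.329 and 0.304 in WT. Itgb2l, a relative of Itgb2 known from neutrophil precursors in mice, was at 1.18 and 0.123 in Cebpa_KO and at 0.0322, 0.0153 and 0.391 in WT. Cebpa_KO replicate 1, the highest for both, also had the highest sums of erythroid and myeloid markers, and their part in these values was not tested. Itgad was at 1.33 in WT replicate 3 and at 0.604 or less elsewhere. Itgax, the CD11c chain of dendritic cells, was at 0.364 or less, and Itgb6 and Itga8 were at 0.00357 or less in each library.

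Differences were also taken from each side of the WT group. Of the 10 called genes, Pecam1 had a log2 difference of -1.01 relative to the first pair of WT libraries and -0.51 relative to WT replicate 3. For Itgb5 the same differences were 1.20 and 0.54, for Itgb8 -0.59 and -0.81, and for Itga4 -0.68 and -0.64. A fit with WT replicate 3 as its single WT library takes its spread from the Cebpa_KO pair and assumes that the lone library varies alike. The WT group then has no spread of its own, so calls of members in that fit are not given. In it the log2 differences of the 10 called genes lay between -1.36 for Itga6 and 0.54 for Itgb5. The median of the 30 genes was -0.20 relative to the first pair and -0.40 relative to WT replicate 3, beside 0.00 and -0.01 over all tested genes. Both comparisons share the Cebpa_KO libraries. The stress genes given above differed between the same WT libraries, and their part in these values was not tested.

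**Figure D4:**
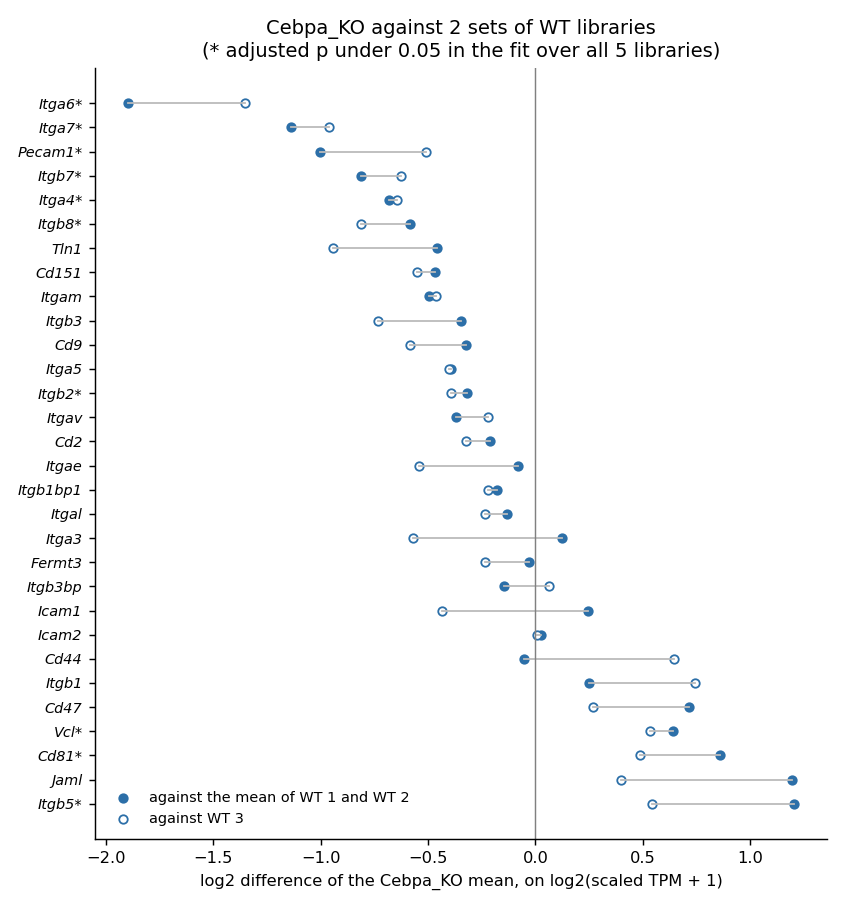
The log2 difference of the Cebpa_KO mean for each of the 30 tested genes, relative to the mean of WT replicates 1 and 2 (filled) and relative to WT replicate 3 (open). The points of Itga4 lie close together at -0.68 and -0.64, whereas those of Icam1 lie on both sides of 0, at 0.24 and -0.43.

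Of 40 other genes of integrin activation, 39 were found and 34 tested. Among these 2 were called higher and 6 lower, 23.5% of those tested beside 19.7% of all genes. Without Ptk2, which was tested through its Cebpa_KO values only, 1 of 33 rose and 6 fell, 21.2%. The median log2 difference was -0.22, beside 0.01 over all genes. Rasgrp1, which loads Ras with GTP downstream of the antigen receptor and in T cells acts upstream of integrin activation, was at 40.3 and 43.8 in Cebpa_KO and at 89.5, 101.6 and 108.4 in WT, a fall of 1.23. Apbb1ip, which encodes the RIAM adaptor between Rap1 and talin, was at 14.6 and 12.4 in Cebpa_KO and at 25.5, 28.4 and 28.3 in WT, a fall of 0.97. Both had groups far apart (limma, adjusted p = 0.00643 and 0.00980). Without Cebpa_KO replicate 1 or 2 the adjusted p was 0.0691 and 0.0739 for Rasgrp1, and 0.0710 and 0.0879 for Apbb1ip.

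Evl, an actin regulator of the Ena/VASP family, fell by 0.96 and Dok2, an adaptor that dampens receptor signals, by 0.79 (limma, adjusted p = 0.0104 and 0.0128). Evl passed without each WT library, and Dok2 did not without WT replicate 2 (adjusted p = 0.0550). Neither passed without Cebpa_KO replicate 1 (0.0723 and 0.0951) or 2 (0.0913 and 0.0739). Stk4, the MST1 kinase that acts with the Rap1 effector RAPL, and Dok1 fell by 0.57 and 0.56 (limma, adjusted p = 0.0312 and 0.0354), calls lost without WT replicate 2 (0.0917 and 0.102), Cebpa_KO replicate 1 (0.155 and 0.150) or Cebpa_KO replicate 2 (0.180 and 0.202). Both are named here after their values were seen. The pair called higher, named here after its values were seen, was Ptk2 and Bcar1, the focal adhesion kinase FAK and its substrate p130Cas. Ptk2 was at 2.02 and 3.40 in Cebpa_KO and at 0.462, 0.412 and 0.315 in WT, and Bcar1 was at 2.92 and 6.05 in Cebpa_KO and at 0.365, 0.321 and 1.53 in WT. Ptk2 had to differ to be tested, so its call is not support for a rise. The log2 differences of 1.39 and 1.66 (limma, adjusted p = 0.0153 and 0.0432) did not pass without WT replicate 2 (0.0572 and 0.117), and that of Bcar1 also without WT replicate 1 (0.104), Cebpa_KO replicate 1 (0.110) or Cebpa_KO replicate 2 (0.207). Ptk2 was below the filter without either Cebpa_KO library, and in the assembled loci neither passed (0.153 and 0.122).

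Of 22 other tetraspanins and their partners, 17 were tested, and 1 rose and 3 fell, 23.5% beside 19.7% of all genes. Their median log2 difference was 0.16, beside 0.01 over all genes. Without Ptgfrn, which was tested through its Cebpa_KO values only, 1 of 16 rose and 3 fell, 25.0%, and the median was 0.11. Tspan32, a tetraspanin of blood cells, was at 344.1 and 368.7 in Cebpa_KO and at 677.9, 597.8 and 587.0 in WT, a fall of 0.80 (limma, adjusted p = 0.00995). Cd37 was at 319.6 and 323.8 in Cebpa_KO and at 516.8, 469.1 and 544.3 in WT, a fall of 0.66 (adjusted p = 0.0125). For both the groups were far apart, and both passed when any WT library was left out. Cd82, which like Cd81 rose, was at 1539 and 1814 in Cebpa_KO and at 968.0, 985.3 and 1265 in WT, a rise of 0.65 (adjusted p = 0.0433) that was lost without WT replicate 1 (0.0985) or 2 (0.121). Tspan14 fell by 0.42 (adjusted p = 0.0447), a call lost without WT replicate 1 (0.0839) or 2 (0.119). None of these 4 passed without Cebpa_KO replicate 1 or 2, with an adjusted p between 0.0848 and 0.221.

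Of 29 ligand genes of these receptors, 21 were below the filter and 8 were tested, of which 2 rose and 1 fell, 37.5% beside 19.7% of all genes. Their median log2 difference was 0.37, beside 0.01 over all genes, with 0.68 relative to the first pair of WT libraries and -0.18 relative to WT replicate 3. The rises were Npnt and Spp1, integrin ligands of the extracellular matrix. Npnt was at 17.5 and 19.5 in Cebpa_KO and at 0.615, 1.02 and 1.20 in WT (log2 difference 3.34, limma adjusted p = 0.00333), and Spp1 was at 85.2 and 136.2 in Cebpa_KO and at 4.16, 2.98 and 10.9 in WT (4.12, adjusted p = 0.00995). Both were known as large rises before this list was drawn up. The share and the median of the list, which hold both, are thus not support for a rise of ligands. Npnt did not pass without Cebpa_KO replicate 2 (adjusted p = 0.0624), and Spp1 not without Cebpa_KO replicate 1 (0.0710) or 2 (0.0851). The fall was Cd48, given above. Lamc1, a laminin chain, had a log2 difference of -0.95 and did not pass (adjusted p = 0.0726). It passed in 2 of the alternative fits (limma, lowest adjusted p = 0.0341).

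**Figure D5:**
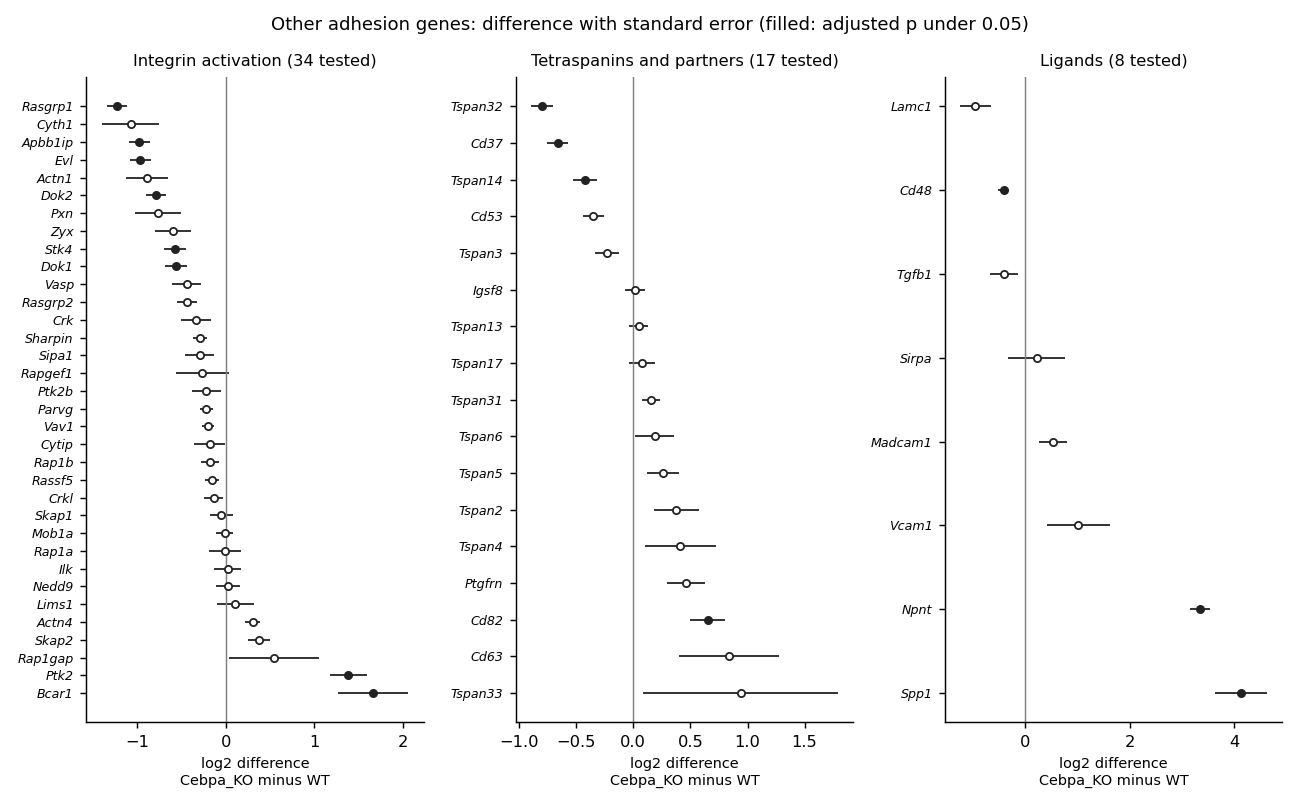
The log2 difference of Cebpa_KO minus WT with its standard error for 34 integrin activation genes, 17 tetraspanins and partners and 8 ligands; filled points had an adjusted p under 0.05. Npnt and Spp1 lie above 3, and Rasgrp1, Apbb1ip and Evl lie near -1.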

How the data were processed

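SMART-Seq v4 and Nextera XT kits were used on total RNA of the sorted cells, per the labels' protocols. Alignment tools and build in the submitters' processing notes are STAR (2.7.11b), StringTie (2.1.3b) and mm39; the strand setting was not given in the sources used here. Per the file headers, each library has coverage, FPKM and TPM per row. The TPM values deposited by the authors were treated as a score, because the column holds both annotated genes and assembled loci. Coverage, deposited as a signal per base, and FPKM, deposited by the authors, gave the aligned depth from their ratio. The depth limits precision, and no read counts are held in the tables, so count models and counting intervals were not used.

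Rows of 1 gene ID were summed. Each library was divided by a size factor, the median over genes of its ratio to their geometric mean, from genes that reached a TPM of 1 in every library, with factors of 0.984 to 1.04. The test used the 16254 genes that reached a TPM of 1 in 2 or more of the 5 libraries, on the scale log2(scaled TPM + 1), which understates changes of low genes, with limma 3.58.1 in R 4.3.3 (intensity trend, Benjamini-Hochberg adjustment, threshold 0.05). On data simulated for this comparison with 16254 genes, 72 of 100 genes with a log2 change of 1, 94 of 100 with a log2 change of 2 and 8 of 16054 unchanged genes were called. Simulated noise was normal and independent between genes and libraries. It held no shared shift such as that of the stress genes in WT replicate 3. Changed genes were drawn from higher levels than those of low members such as Vcl. These rates thus do not carry over to the real libraries or to low members. Beta chain shares had an exact permutation test. The Cebpa difference was -3.42 (limma, adjusted p = 0.00371; exact permutation test p = 0.1, two-sided, the smallest that 10 splits allow).

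Members, lists and tests were chosen with earlier results of these data known. Values per library are given for called members and the 8 most abundant others, and 4 genes with the smallest p are named from each other list; further genes, among them Itgam, Itgb1bp1, Cd151, Itga2b and Itgb2l, were chosen for values per library after their values were seen. Alternatives were pseudocounts of 0.1 and 5, array weights, quantile normalization, TPM without scaling, no filter, the filter raised to a TPM of 5, no trend, robust moderation, each library left out, WT replicate 3 alone as WT and a replicate block. The assembled loci (per gene, the highest TPM of a same-strand locus with at least 50 percent of its length inside the gene) were added after seeing the data. Replicates were not identical: any pair of libraries shared the same TPM in at most 0.0431% of tested genes. Tools were pandas 2.3.3, numpy 2.4.6, scipy 1.17.1 and matplotlib 3.10.9.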

Additional observations from a re-analysis of the deposited data

How the results depend on the processing

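The 3 members called higher and 7 called lower became 1 and 7 with a pseudocount of 0.1. With no filter (57186 genes tested) they became 0 and 1. They became 5 and 8 with array weights and 0 and 7 in the assembled loci. With 1 library left out, 0 to 5 were higher and 0 to 6 lower. The 2 higher and 6 lower integrin activation genes became 1 higher with a pseudocount of 0.1, 0 and 1 with no filter, 0 higher at a TPM of 5, 4 and 12 with array weights, and 0 higher both with WT replicate 3 alone as WT and in the assembled loci; with 1 library left out they were 0 to 3 and 0 to 8. The 1 lower ligand gene became 0 with no filter, no trend, WT replicate 3 alone as WT, the replicate block and the assembled loci, and 2 with array weights; with 1 library left out 0 to 2 ligands were higher and 0 to 1 lower. The 1 higher tetraspanin gene became 0 with no filter, no trend and WT replicate 3 alone as WT, and the 3 lower became 0 with no filter; with 1 library left out they were 0 to 1 and 0 to 4. With no filter more genes were tested, and with a library left out fewer samples were. With WT replicate 3 alone as WT that library is assumed to vary like the Cebpa_KO pair. The replicate block leaves WT replicate 3 out of the comparison. The cause of the changed counts was not tested for any setting. Over all tested genes 19.7% were called at the main settings, 19.0% with a pseudocount of 0.1, 17.9% with no trend and 26.1% at a TPM of 5. The share was 30.9% with array weights, 1.35% with no filter, 14.8% with the replicate block and 13.5% in the assembled loci. With 1 WT library left out it lay between 5.18% and 25.1%.

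Without Cebpa_KO replicate 2 the Cebpa difference of -3.54 no longer passed (limma, adjusted p = 0.0512), and over single libraries left out it lay between -3.54 and -3.27. The share difference of Itgb2 lay between -0.17 and 2.37 points, that of Itgb7 between -12.4 and -9.97 and that of Itgb1 between 9.15 and 11.1. Of the 30 members, 8 that were not called turned sign in at least 1 fit: Cd44, Fermt3, Icam1, Icam2, Itga3, Itgae, Itgav and Itgb3bp. Icam1 stood at -0.023 with quantile normalization, between -0.17 and 0.24 over single libraries left out (negative without Cebpa_KO replicate 2 and without the first or second WT library), and at -0.44 with WT replicate 3 alone as WT. Fermt3 stood at 2.88 in the assembled loci, where no locus of WT replicate 1 met the overlap.

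Whether replicate numbers pair the libraries could not be settled. Deviations from the group mean correlated at -0.18 for replicates numbered 1 and 0.27 for those numbered 2. The deviations of 2 Cebpa_KO libraries mirror each other by construction, so these values are not separate checks. The replicate block gives WT replicate 3 a term of its own, since no Cebpa_KO library has its number. Differences in that fit are thus relative to WT replicates 1 and 2. With the replicate block 2 members were higher and 5 lower, and Itgb8, Itgb2 and Vcl did not pass (limma, adjusted p = 0.0627, 0.1 and 0.0869). Vcl also missed the threshold with quantile normalization (0.0595), robust moderation (0.0509) and a pseudocount of 0.1 (0.0576), Itgb5 with the same pseudocount (0.0523) and without the trend (0.0507), Itga4 on unscaled TPM (0.0568) and without the trend (0.0563), and Itgb2 without the trend (0.0741). Depth was alike between libraries, and it limits members near a TPM of 1, such as Vcl, Jaml and Itgam.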
